A study of Rattus norvegicus with 9 samples.

Results

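The genes described here are 9 that encode ligands and receptors of the platelet-derived growth factor (PDGF) and fibroblast growth factor (FGF) families: Pdgfa, Pdgfb, Pdgfc, Pdgfra, Pdgfrb, Fgf2, Fgf7, Fgfr1 and Fgfr2. They were taken by symbol from a table of 22050 genes, and each had 1 row there. They were measured by RNA-seq in rat renal fibroblasts of the established line NRK-49F, with the genotype given as wild type. All 9 libraries came from cells kept in TGF-β1, the cytokine that drives fibroblasts towards matrix-producing myofibroblasts, for 48 h. The added agent was the compound YWCH-4A in 3 libraries, the compound YEXX-2A in 3 and vehicle in 3. Both compounds are known by code name only, and neither a dose nor an exposure time is stated for them. Cells that had no TGF-β1 were not analysed here. The labels call the 3 libraries of a group biological replicates without saying how the cultures were kept apart, so the p-values reflect the library-to-library spread, which may be technical.

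PDGF ligands are secreted as dimers that bring together a pair of receptor chains, α (Pdgfra) or β (Pdgfrb), and so switch on their tyrosine kinases. The A chain binds the α receptor, the B chain binds both receptors, and the C chain binds the α receptor after a protease has removed its CUB domain. FGF ligands signal through a separate set of receptor kinases and, for most of them, need heparan sulfate on the cell surface as a co-receptor. In the kidney, PDGF receptors mark interstitial fibroblasts, pericytes and mesangial cells, which respond to these ligands by dividing, migrating and laying down matrix. Fgf7 is made by stromal cells and acts mainly on epithelial cells through a splice form of Fgfr2.

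The promoters of the 3 PDGF ligand genes are shown because these genes moved in different directions with YWCH-4A. Each sequence holds the 250 bases before the gene's RefSeq start on rat build GRCr8, read 5′ to 3′ on the gene's strand, and capitals mark a GC box (GGGCGG on either strand). Pdgfa lies at chr12:20759116-20759365 (+), Pdgfb at chr7:113438344-113438593 (-) and Pdgfc at chr2:168614918-168615167 (+).
Pdgfa: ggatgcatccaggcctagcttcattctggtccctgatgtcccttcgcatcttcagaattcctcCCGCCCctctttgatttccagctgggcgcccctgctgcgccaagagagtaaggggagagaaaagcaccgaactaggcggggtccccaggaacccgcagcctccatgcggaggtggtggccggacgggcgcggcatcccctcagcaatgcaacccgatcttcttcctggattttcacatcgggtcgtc
Pdgfb: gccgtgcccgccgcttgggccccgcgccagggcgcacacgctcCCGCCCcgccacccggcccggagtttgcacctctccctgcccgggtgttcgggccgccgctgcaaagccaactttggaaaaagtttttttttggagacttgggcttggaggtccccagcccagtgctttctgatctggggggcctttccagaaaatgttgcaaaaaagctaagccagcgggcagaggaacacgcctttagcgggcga
Pdgfc: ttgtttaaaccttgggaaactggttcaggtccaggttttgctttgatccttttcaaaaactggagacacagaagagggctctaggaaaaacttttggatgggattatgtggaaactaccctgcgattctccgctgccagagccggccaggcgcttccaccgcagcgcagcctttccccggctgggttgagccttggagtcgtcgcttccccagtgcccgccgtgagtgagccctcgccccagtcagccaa
The Pdgfa and Pdgfb windows each held 1 GC box on the reverse strand, at -187 to -182 and at -207 to -202 from the start. The Pdgfc window held none. A GC box was present in 30.5% of 33469 promoter windows of the same length. Pdgfa, Pdgfb and Pdgfc held none of the other motifs searched on both strands, which were TATAAA, the AP-1 site TGANTCA, the EGR site GCGGGGGCG and the NF-kB site. These occurred in 12.9%, 6.34%, 2.45% and 3.54% of windows. The GC content was 60.8% for Pdgfa, 63.6% for Pdgfb and 56.0% for Pdgfc, against a median of 51.2% over all windows. Of the 9 genes, 7 had a promoter sequence, and those of Pdgfra, Fgf2, Fgf7 and Fgfr2 are not printed. Among them were 1 AP-1 site in Pdgfra, 1 TATAAA match in Fgf7 and 2 GC boxes in Fgfr2, and no match in Fgf2.

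Total estimated counts per library lay between 13675880 and 21923706. Replicates varied with a biological coefficient of variation of 3.67% among YWCH-4A libraries, 7.34% among YEXX-2A libraries and 16.7% among vehicle libraries. Vehicle replicate 2 stood apart: on the main axis of variation within groups it scored 46.4, and the other 8 libraries scored between -25.0 and 5.45. Results of the 8 tested genes against vehicle are therefore also given without it. The library score on that axis kept differences between groups: the YEXX-2A libraries scored -17.0, -25.0 and -7.45. Adjustment for the score can therefore also alter a compound's own change. The sum of 13 mitochondrial genes was 17692 to 18764 CPM (read counts scaled by library size) in YWCH-4A libraries, 23286 to 26471 CPM in YEXX-2A libraries and 15872 to 21291 CPM in vehicle libraries, and its part in the results was not tested. Of 11 fibroblast markers 8 passed the count filter, among them Vim (mean 3136 CPM with YWCH-4A, 6465 with YEXX-2A, 6714 with vehicle) and Col1a1 (6464 CPM with YWCH-4A, 21958 with YEXX-2A, 32188 with vehicle). Ddr2, a collagen receptor, was called higher with both compounds (log2 fold change 0.36 with YWCH-4A and 0.25 with YEXX-2A), and S100a4 averaged 333.2 CPM with YWCH-4A, 329.7 with YEXX-2A and 284.3 with vehicle. Of the 8 markers, Pdgfra and Pdgfrb among them, 2 were higher and 3 lower with YWCH-4A and 1 was higher and 4 were lower with YEXX-2A. Over all genes tested, 15.7% were called higher and 14.9% lower with YWCH-4A, and 17.6% higher and 18.5% lower with YEXX-2A. Thy1, Dcn and Fap, also fibroblast markers, had 72, 15 and 1 counts over all 9 libraries. The summed fibroblast markers reached 10773 to 11688 CPM with YWCH-4A, 32464 to 35715 with YEXX-2A and 43088 to 55997 with vehicle, most of it Col1a1, Col3a1 and Vim. The 9 kidney epithelial markers summed to 916 to 965 CPM with YWCH-4A, 1516 to 1602 with YEXX-2A and 1785 to 2299 with vehicle, nearly all of it Krt8, while Epcam, Krt18 and Umod were listed at 0. The 7 leukocyte markers summed to 66.2 to 73.7 CPM with YWCH-4A, 41.8 to 45.5 with YEXX-2A and 47.5 to 62.9 with vehicle, nearly all of it Cd68, and Ptprc had 3 counts in all. Endothelial markers summed to at most 4.46 CPM and pericyte and mesangial markers to at most 25.7 CPM in any library. The part of these markers in the results was not tested. In bulk RNA, fewer cells of a type and less RNA per cell cannot be told apart.

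Levels of different genes were compared on the deposited FPKM values, which are scaled by length, as means ± SD of 3 libraries. Under YWCH-4A the order was Fgf7 (63.6 ± 2.75 FPKM), Pdgfa (57.1 ± 1.28), Pdgfra (47.6 ± 0.917), Pdgfrb (33.6 ± 1.58), Pdgfc (22.0 ± 0.817), Fgfr2 (9.01 ± 0.480), Pdgfb (1.70 ± 0.387) and Fgf2 (1.39 ± 0.165). The library ranges of Pdgfb and Fgf2 overlapped, and those of the other neighbours in that order did not. Under YEXX-2A it was Fgf7 (54.3 ± 11.2 FPKM), Pdgfc (49.7 ± 2.10), Pdgfa (39.1 ± 5.10), Pdgfra (28.2 ± 0.547), Pdgfrb (19.8 ± 0.639), Fgfr2 (12.0 ± 0.135), Fgf2 (2.26 ± 0.724) and Pdgfb (0.147 ± 0.0611). There the ranges of Fgf7 and Pdgfc overlapped, and those of no other neighbours did. Vehicle cells had Pdgfc highest (41.7 ± 8.27 FPKM), and then 4 genes with overlapping ranges: Pdgfrb (28.2 ± 2.41), Fgf7 (26.7 ± 8.10), Pdgfra (26.1 ± 3.92) and Pdgfa (26.1 ± 5.35). Fgfr2 (11.4 ± 0.769 FPKM), Fgf2 (1.82 ± 0.602) and Pdgfb (0.227 ± 0.0651) followed without overlap in vehicle cells. Fgfr1 was listed between 0 and 0.1 FPKM in each of the 9 libraries. Among the ligands of these 9 genes, Pdgfc thus led in vehicle cells, and Fgf7 and Pdgfa led under YWCH-4A. Other ligands, Fgf1 among them, were not ranked by FPKM.

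**Figure D1:**
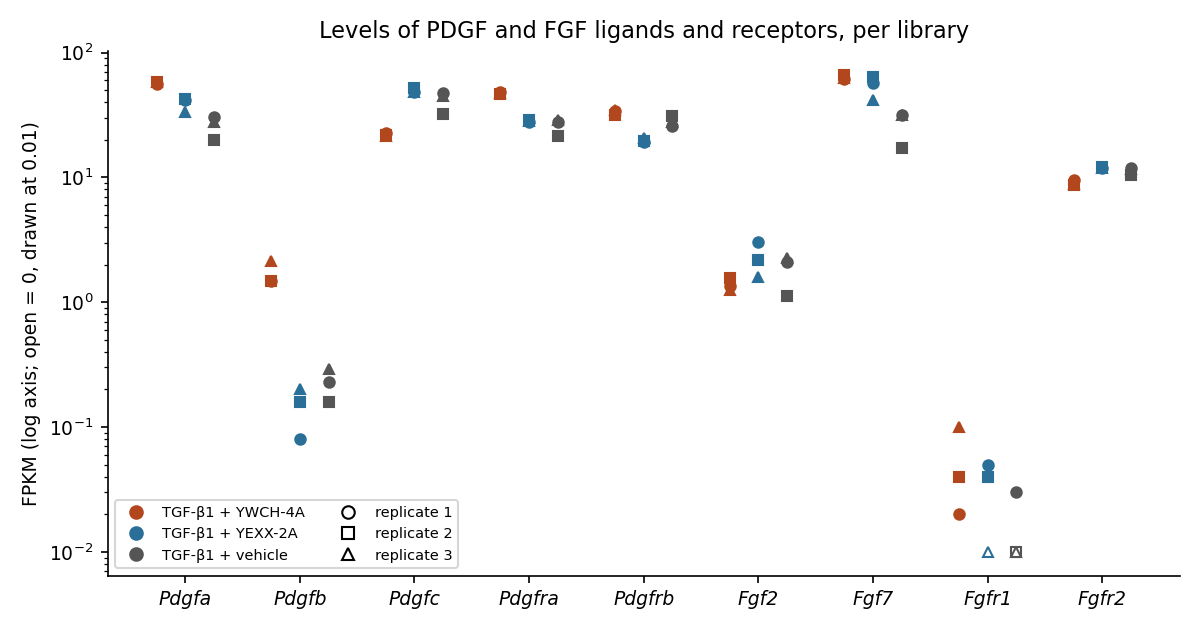
Deposited FPKM of the 9 genes (vertical axis, per-length level) in each library of cells given YWCH-4A, YEXX-2A or vehicle, all with TGF-β1; each symbol is 1 library, on a log axis with values of 0 drawn open at 0.01. Fgf7 and Pdgfa led under YWCH-4A (means of 63.6 and 57.1 FPKM), Pdgfc led in vehicle cells (41.7 FPKM), and Fgfr1 lay at or near 0 throughout.

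Of the 8 genes with enough counts to be tested, 6 were called (edgeR adjusted p under 0.05) in YWCH-4A over vehicle, 4 of them higher and 2 lower. Over all 11473 genes tested, 30.6% were called in that comparison, 15.7% higher and 14.9% lower. The median log2 fold change of the 8 was 0.38, against 0.03 over all genes tested. In YEXX-2A over vehicle 3 of the 8 were called, 2 higher and 1 lower, where 36.1% of all genes were called (17.6% higher, 18.5% lower), with medians of 0.10 for the 8 and 0.01 for all. In YWCH-4A over YEXX-2A 7 of the 8 were called, 4 higher and 3 lower, where 31.3% of all genes were called (16.2% higher, 15.1% lower), with medians of 0.30 and -0.00. Pdgfb passed the count filter through its YWCH-4A libraries alone and so had to differ, and these counts and medians, which include it, are no support. Under a stricter filter of at least 1 CPM in 6 libraries, which left Pdgfb out, 5 of 7 genes were called in YWCH-4A over vehicle, 3 in YEXX-2A over vehicle and 6 in YWCH-4A over YEXX-2A. Under that filter 31.2%, 38.6% and 31.9% of all genes were called in these comparisons. Without vehicle replicate 2, 8 of the 8 were called in YWCH-4A over vehicle, 3 in YEXX-2A over vehicle and 7 in YWCH-4A over YEXX-2A, where 39.4%, 35.1% and 51.6% of all genes were called. These counts again include Pdgfb and are no support. Both comparisons with vehicle share the same 3 vehicle libraries.

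Among the PDGF ligands, Pdgfa rose with both compounds, Pdgfb was higher with YWCH-4A and Pdgfc fell with YWCH-4A. Pdgfa, the A chain, had 56.5, 59.2 and 58.8 CPM in YWCH-4A libraries, 44.3, 45.8 and 36.2 CPM in YEXX-2A libraries and 33.7, 24.1 and 31.3 CPM in vehicle libraries. The 3 groups did not overlap. Non-overlap of this kind was seen for 46.0% of all genes in YWCH-4A over vehicle, 51.6% in YEXX-2A over vehicle and 58.9% in YWCH-4A over YEXX-2A. The log2 fold change of Pdgfa was 0.97 (SE 0.13, edgeR adjusted p = 0.000197) for YWCH-4A over vehicle, a 1.96-fold higher level. For YEXX-2A over vehicle it was 0.50 (SE 0.13, edgeR adjusted p = 0.0165), 1.42-fold. Leaving out vehicle replicate 2 gave 0.84 and 0.38, and both calls stood. The YEXX-2A call was lost without YEXX-2A replicate 1 (adjusted p = 0.0609), without YEXX-2A replicate 2 (0.0734), with the 2 groups compared only (0.0549) and after adjustment for the library score (log2 fold change 0.21, adjusted p = 0.111).

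Pdgfb, the B chain, was the rarest of the 8 tested genes by count, with 65, 58 and 71 counts in YWCH-4A libraries, 4, 7 and 6 in YEXX-2A libraries and 8, 5 and 9 in vehicle libraries. These are 3.05, 3.01 and 4.44 CPM with YWCH-4A, 0.182, 0.356 and 0.444 CPM with YEXX-2A and 0.521, 0.396 and 0.656 CPM with vehicle. The YWCH-4A libraries all lay above the 6 others, and the YEXX-2A and vehicle libraries overlapped. The fitted log2 fold change of Pdgfb was 2.71 (SE 0.32) for YWCH-4A over vehicle, 6.53-fold, and 2.56 without vehicle replicate 2. Because the count filter kept Pdgfb through its YWCH-4A libraries, the p after filtering is not given. In the edgeR fit with no filter, over 15001 genes of which 22.8% were called, the adjusted p was 3.42e-05. For YEXX-2A over vehicle it was -0.74 with a 95% interval of -1.70 to 0.22 (edgeR adjusted p = 0.185), so that a fall could not be told from no change at this depth, and -0.90 without vehicle replicate 2. On the log2(FPKM + 1) scale, tested with limma, the YWCH-4A change of Pdgfb was 1.13, a scale that understates changes of low genes.

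Pdgfc, the C chain, had 46.8, 43.5 and 45.8 CPM in YWCH-4A libraries, 103.8, 113.4 and 106.3 CPM in YEXX-2A libraries and 106.5, 76.0 and 104.0 CPM in vehicle libraries. All YWCH-4A libraries lay below the others, while YEXX-2A and vehicle libraries overlapped. Pdgfc fell with YWCH-4A by 1.08 on the log2 scale (SE 0.12, edgeR adjusted p = 4.76e-05), a 2.11-fold lower level. The log2 fold change was -1.21 without vehicle replicate 2. With YEXX-2A the change was 0.17, with a 95% interval of -0.07 to 0.42 (edgeR adjusted p = 0.228), and it was 0.034 without vehicle replicate 2 and -0.094 after adjustment for the library score.

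The balance of the C chain to the A chain therefore differed between the groups, as described by the ratio of their FPKM within each library. Pdgfc over Pdgfa was 0.411, 0.375 and 0.369 in YWCH-4A libraries, 1.18, 1.22 and 1.45 in YEXX-2A libraries and 1.58, 1.61 and 1.60 in vehicle libraries. Pdgfc exceeded Pdgfa in every YEXX-2A and vehicle library and stayed below it in every YWCH-4A library. Vehicle replicate 2, which was lowest of its group for both genes, had a ratio close to those of the other vehicle libraries. These ratios are descriptions and carry no test.

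**Figure D2:**
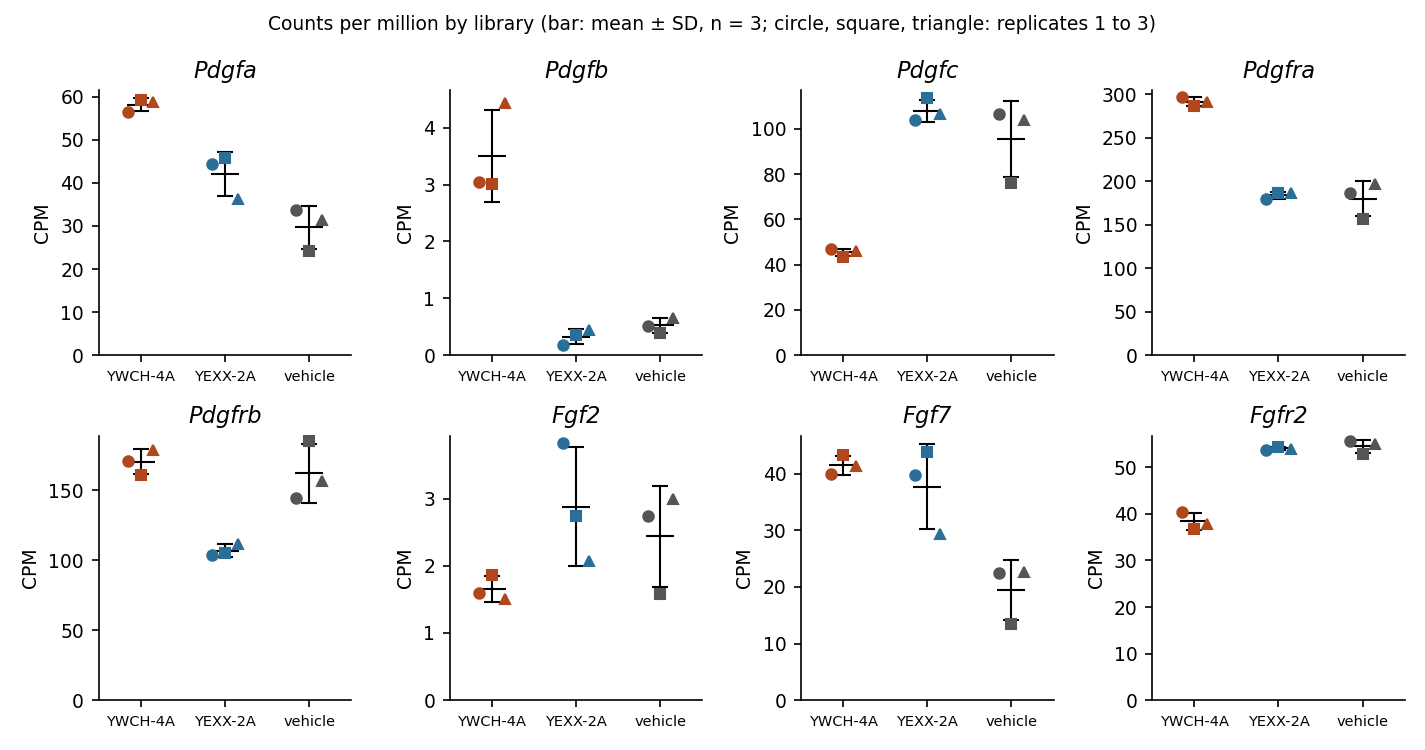
CPM on scaled library sizes (vertical axes, 1 panel per gene) in cells given YWCH-4A, YEXX-2A or vehicle, all with TGF-β1; symbols are libraries and bars are the mean ± SD (n = 3). Pdgfa, Pdgfb and Pdgfra were highest and Pdgfc and Fgfr2 lowest under YWCH-4A, Pdgfrb was lowest under YEXX-2A (mean 106.8 CPM) and Fgf7 was higher under both compounds than with vehicle (mean 19.5 CPM).

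The receptor genes moved in different directions with the compounds: Pdgfra rose with YWCH-4A and Pdgfrb fell with YEXX-2A. Pdgfra, the α receptor that binds A, B and C chains, had 297.4, 286.2 and 291.2 CPM in YWCH-4A libraries, 179.4, 186.3 and 186.6 CPM in YEXX-2A libraries and 186.5, 157.1 and 196.8 CPM in vehicle libraries. The YWCH-4A libraries lay above all others, and the other groups overlapped. The log2 fold change of Pdgfra for YWCH-4A over vehicle was 0.69 (SE 0.08, edgeR adjusted p = 7.25e-05), 1.62-fold, and 0.61 without vehicle replicate 2. For YEXX-2A over vehicle it was 0.03, with a 95% interval of -0.14 to 0.20 (edgeR adjusted p = 0.770), and -0.059 without vehicle replicate 2.

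Pdgfrb, the β receptor that binds the B chain, had 171.0, 160.9 and 178.7 CPM in YWCH-4A libraries, 103.7, 105.0 and 111.8 CPM in YEXX-2A libraries and 144.3, 184.9 and 156.6 CPM in vehicle libraries. Here the YEXX-2A libraries lay below all others, and YWCH-4A and vehicle libraries overlapped. Pdgfrb fell with YEXX-2A by 0.60 on the log2 scale (SE 0.09, edgeR adjusted p = 0.00253), a 1.52-fold lower level. Without vehicle replicate 2, which was the highest vehicle library for this gene alone among the 8, the log2 fold change was -0.50 and the call stood. For YWCH-4A over vehicle the change was 0.07, with a 95% interval of -0.12 to 0.27 (edgeR adjusted p = 0.574). It was 0.18 without vehicle replicate 2 and then passed the test (edgeR adjusted p = 0.0169), and without vehicle replicate 1 it was -0.0040. It also passed after adjustment for the library score (0.16, adjusted p = 0.00322) and with limma on log2(FPKM + 1) (0.24, adjusted p = 0.0224) and on log2(FPKM + 0.1) (0.25, adjusted p = 0.0229).

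By FPKM within each library, Pdgfra over Pdgfrb was 1.44, 1.47 and 1.35 in YWCH-4A libraries, 1.43, 1.47 and 1.38 in YEXX-2A libraries and 1.07, 0.703 and 1.04 in vehicle libraries. The compound libraries overlapped with each other and all lay above the vehicle libraries. The same ratio was thus reached with a higher Pdgfra under YWCH-4A and a lower Pdgfrb under YEXX-2A. Without replicate 2 the vehicle mean was 1.05.

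**Figure D3:**
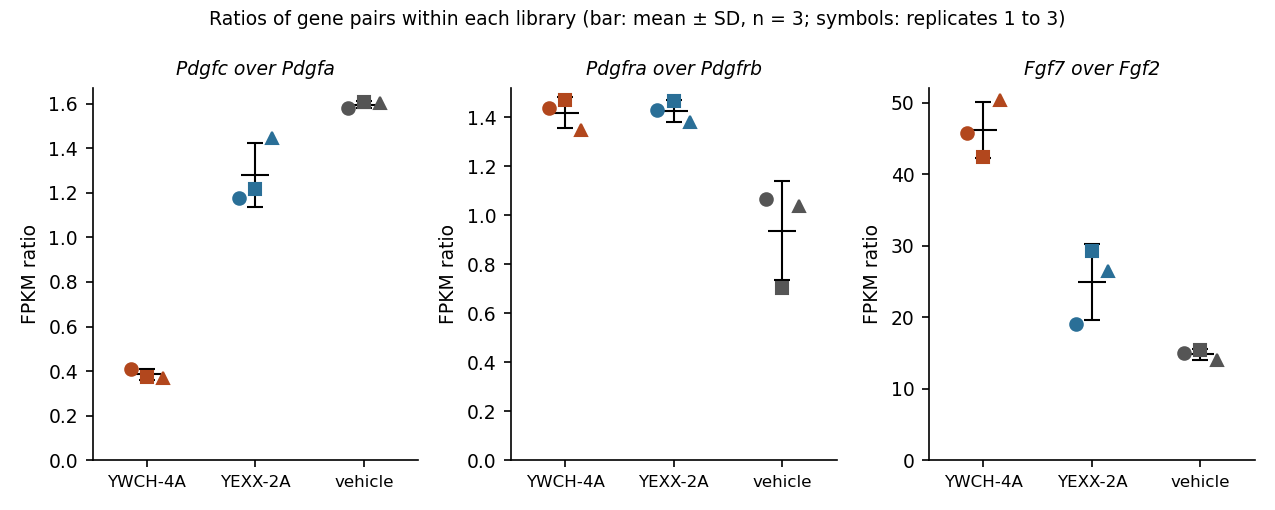
Ratios of FPKM between pairs of the genes within each library (vertical axes) for YWCH-4A, YEXX-2A and vehicle; symbols are libraries and bars are the mean ± SD (n = 3). Pdgfc over Pdgfa lay below 1 in the YWCH-4A libraries, and Pdgfra over Pdgfrb lay above the vehicle libraries in all 6 libraries from compound-treated cells.

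Of the FGF ligands, Fgf7 rose with both compounds, and Fgf2 passed the test in neither comparison with vehicle. Fgf7, the keratinocyte growth factor, had 39.9, 43.3 and 41.3 CPM in YWCH-4A libraries, 39.8, 43.8 and 29.3 CPM in YEXX-2A libraries and 22.4, 13.4 and 22.7 CPM in vehicle libraries. Every compound library lay above every vehicle library, and the compound groups overlapped. The log2 fold change of Fgf7 was 1.08 (SE 0.19, edgeR adjusted p = 0.00163) for YWCH-4A over vehicle, 2.12-fold. It was 0.95 (SE 0.19, edgeR adjusted p = 0.00812) for YEXX-2A over vehicle, 1.93-fold. Both calls stood without vehicle replicate 2, at 0.88 and 0.75. After adjustment for the library score the YEXX-2A change was 0.44, still past the test (edgeR adjusted p = 0.00473).

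Fgf2, the basic FGF and a broad mitogen of mesenchymal cells, had 1.60, 1.87 and 1.50 CPM in YWCH-4A libraries, 3.82, 2.75 and 2.07 CPM in YEXX-2A libraries and 2.73, 1.58 and 2.99 CPM in vehicle libraries. The vehicle range overlapped those of both compounds. The log2 fold change of Fgf2 was -0.56 for YWCH-4A over vehicle, with a 95% interval of -1.21 to 0.09 (edgeR adjusted p = 0.176). It was -0.78 without vehicle replicate 2 and then passed the test (edgeR adjusted p = 0.0303). For YEXX-2A over vehicle it was 0.25, with an interval of -0.36 to 0.87 (edgeR adjusted p = 0.474). It was 0.037 without vehicle replicate 2, -0.010 without YEXX-2A replicate 1 and -0.27 after adjustment for the library score. By FPKM, Fgf7 stood 45.7, 42.4 and 50.3 times above Fgf2 in YWCH-4A libraries, 19.1, 29.3 and 26.4 times in YEXX-2A libraries and 15.0, 15.3 and 14.0 times in vehicle libraries, with no overlap between groups.

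Of the FGF receptors, Fgfr2 fell with YWCH-4A and Fgfr1 was barely detected. Fgfr2 had 40.5, 36.8 and 37.9 CPM in YWCH-4A libraries, 53.8, 54.5 and 53.9 CPM in YEXX-2A libraries and 55.5, 52.9 and 55.0 CPM in vehicle libraries. The YWCH-4A libraries lay below all others. YEXX-2A and vehicle libraries overlapped within a narrow range. Fgfr2 fell with YWCH-4A by 0.50 on the log2 scale (SE 0.07, edgeR adjusted p = 0.000236), a 1.42-fold lower level, and the log2 fold change was -0.52 without vehicle replicate 2. It was -0.31 on log2(FPKM + 1), still past the test (limma adjusted p = 0.00911). For YEXX-2A over vehicle it was -0.01, with a 95% interval of -0.16 to 0.14 (edgeR adjusted p = 0.899), and -0.032 without vehicle replicate 2. Gene counts do not separate the splice forms of Fgfr2 that bind different ligands.

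Fgfr1, the receptor through which FGF2 signals in many fibroblasts, had 1, 2 and 4 counts in YWCH-4A libraries, 3, 2 and 0 in YEXX-2A libraries and 1, 0 and 0 in vehicle libraries. The zero counts allow up to 0.222 CPM in YEXX-2A replicate 3, 0.238 in vehicle replicate 2 and 0.219 in vehicle replicate 3 (3 counts each, counting error only). Fgfr1 was not tested, and no fold is given. Its single row was listed near 0 in a table in which Krt18 was listed at 0 beside a high level of Krt8, the keratin it pairs with. Why these rows lay at or near 0 was not tested. Of the other receptors, Fgfr3 averaged 6.25 CPM with YWCH-4A, 5.75 with YEXX-2A and 6.96 with vehicle, and Fgfr4 had 3 counts in all.

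**Figure D4:**
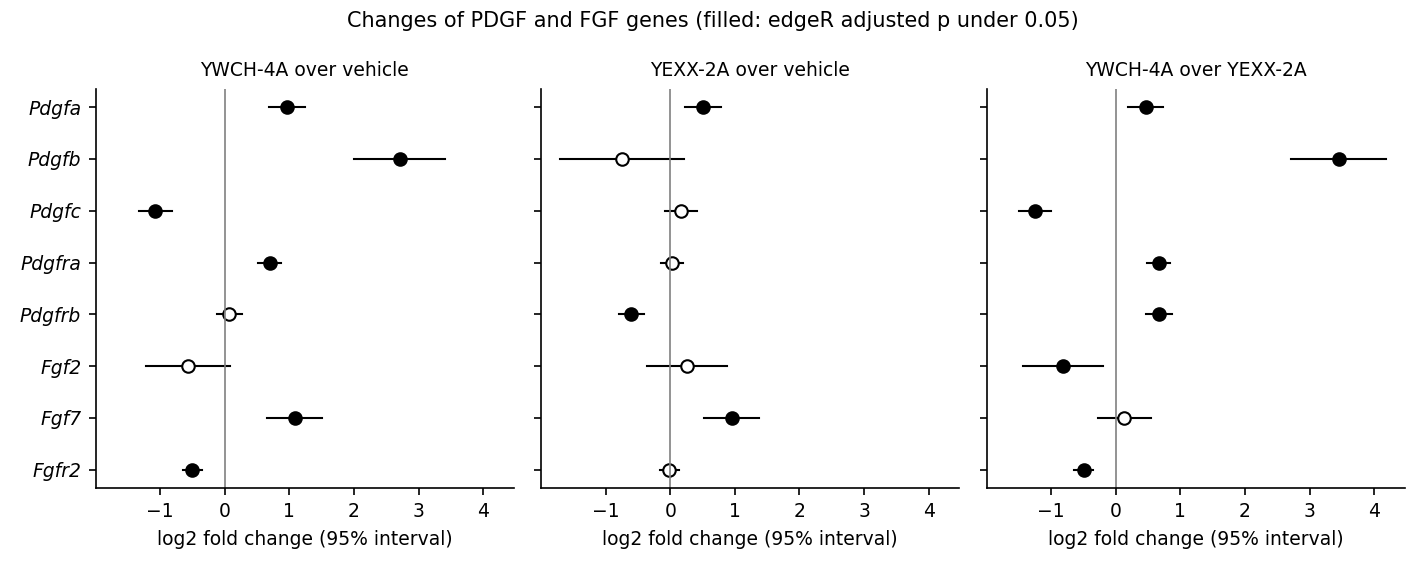
Log2 fold changes of the 8 tested genes (horizontal axes) for YWCH-4A over vehicle, YEXX-2A over vehicle and YWCH-4A over YEXX-2A, with 95% intervals from the edgeR fit; filled points passed an adjusted p of 0.05. Pdgfb, which passed the count filter through its YWCH-4A libraries alone, had the largest fitted change over vehicle with YWCH-4A (2.71). The filled points of Pdgfb rest on the p after that filter and are no support. Pdgfrb was the one gene called lower in YEXX-2A over vehicle (-0.60).

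The compounds were compared directly in 1 pair, at doses and times that are not given. Pdgfb was higher under YWCH-4A than under YEXX-2A by a fitted 3.45 on the log2 scale (SE 0.33), 10.9-fold, and the adjusted p in the edgeR fit with no filter was 6.05e-06 (23.2% of all genes called). Pdgfc was lower by a log2 fold change of -1.25 (SE 0.11, edgeR adjusted p = 1.81e-05), 2.38-fold. Pdgfra and Pdgfrb were higher under YWCH-4A by 0.66 (95% interval 0.49 to 0.84) and 0.67 (0.47 to 0.87), with edgeR adjusted p-values of 0.000114 and 0.000263. Fgfr2 was lower, at -0.49 (SE 0.07, edgeR adjusted p = 0.000304). Pdgfa was higher, at 0.46 (SE 0.12, edgeR adjusted p = 0.0157), a call lost without YEXX-2A replicate 3 (adjusted p = 0.0568), YWCH-4A replicate 2 (0.0507) or YWCH-4A replicate 3 (0.0521). Fgf2 was lower, at -0.82 (SE 0.28, edgeR adjusted p = 0.0487), and with each library left out in turn its adjusted p ran from 0.00834 to 0.211. That call was lost without vehicle replicate 1, YEXX-2A replicate 1 or 2, or any one of the YWCH-4A replicates. Fgf7 did not pass the test, at 0.13 with a 95% interval of -0.27 to 0.54 (edgeR adjusted p = 0.612). Adjusted for the library score, Fgf7 was higher under YWCH-4A, at 0.47 (adjusted p = 3.58e-05), and without YEXX-2A replicate 3 it was -0.012.

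Across the 9 libraries the genes whose log2 CPM ran most like that of Pdgfb were Birc3 (Pearson r = 0.988), Atp11a (0.987) and Nek6 (0.987). Birc3, an inhibitor of apoptosis, averaged 48.6 CPM with YWCH-4A, 12.5 with YEXX-2A and 15.4 with vehicle. For Fgfr2 they were Arhgef5 (0.989), Ptprd (0.989) and Iars1 (0.988). Ptprd, a receptor tyrosine phosphatase, averaged 7.01 CPM with YWCH-4A, 42.0 with YEXX-2A and 41.8 with vehicle. Among the members, the pairs that ran together most were Pdgfc and Fgfr2 (r = 0.970), Pdgfb and Pdgfra (r = 0.961), and Pdgfa and Fgf7 (r = 0.933). Those that ran against each other most were Pdgfb and Fgfr2 (r = -0.957), Pdgfra and Fgfr2 (r = -0.935), and Pdgfb and Pdgfc (r = -0.933). These correlations describe 9 libraries in 3 groups, with vehicle replicate 2 among them, and carry no test. Pdgfb and Fgfr2 were taken because they had the smallest edgeR p over the 3 groups in their families. Genes that ran like them were therefore likely to follow the same split between groups. For Pdgfb that p came after the count filter, which it passed through its YWCH-4A libraries alone, so its rank is no support.

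Other genes of both pathways were read from lists, and their counts are to be read against the shares of all genes called higher and lower, which were 15.7% and 14.9% with YWCH-4A and 17.6% and 18.5% with YEXX-2A. List counts without vehicle replicate 2 are to be read against 39.4% of all genes called with YWCH-4A and 35.1% with YEXX-2A. Of 15 other FGF ligands 3 were tested, and 10 had no count in any library. Fgf1, the acidic FGF, rose with YWCH-4A by 0.99 on the log2 scale (edgeR adjusted p = 1.72e-05) and with YEXX-2A by 0.42 (adjusted p = 0.0106). Its mean CPM was 123.2 with YWCH-4A, 83.1 with YEXX-2A and 62.0 with vehicle. Fgf10, a relative of Fgf7 that also acts on epithelial cells, rose with YWCH-4A by 1.08 (edgeR adjusted p = 0.00216) and was at 0.02 with YEXX-2A (adjusted p = 0.945). The third, Fgf21, a low-count gene named outside the fixed rule, was called lower with YWCH-4A, the only lower call of that list. The call was absent under 11 of 20 alternatives, among them the fit without vehicle replicate 2. Of 4 other PDGF ligands and binding proteins 3 were tested. Pdgfrl, a PDGF receptor-like protein named outside the rule because of its low level, was called lower with YWCH-4A by a log2 fold change of -1.48 (edgeR adjusted p = 0.00537), with means of 0.484 CPM under YWCH-4A and 1.35 CPM with vehicle. Pdgfd, the D chain, had 1 count in all libraries together. Nrp1, a co-receptor for several growth factors, rose with YWCH-4A by 0.80 (edgeR adjusted p = 0.0022), and Lrp1, an endocytic receptor that modulates the β receptor, fell by 0.28 with YWCH-4A and by 0.27 with YEXX-2A (adjusted p = 0.0452 and 0.0474), calls that were each lost under 11 of 20 alternatives. Of 7 other FGF receptors and co-receptors 2 were tested, Fgfr3 and Fgfrl1, and neither was called in a comparison with vehicle.

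Of 3 tested proteases that can activate these ligands, Plat and Furin rose and Pcsk5 fell with YWCH-4A (list median 0.47), and Plat and Furin fell with YEXX-2A (list median -0.22). Plat, the tissue plasminogen activator that cleaves the C chain, had a log2 fold change of 1.06 (SE 0.07, edgeR adjusted p = 1.57e-06) with YWCH-4A, with means of 137.2 CPM under YWCH-4A and 66.0 CPM with vehicle. With YEXX-2A it was -0.22 (adjusted p = 0.0378), a call lost under 11 of 20 alternatives, among them each of the YEXX-2A libraries left out. Furin, a convertase that trims the A and B chain precursors, changed by 0.47 with YWCH-4A (adjusted p = 0.00158) and by -0.34 with YEXX-2A (adjusted p = 0.0148), the YEXX-2A call being lost without YEXX-2A replicate 2 (0.0712) and with the 2 groups compared only (0.0563). Without vehicle replicate 2 the protease counts were 2 higher and 1 lower with YWCH-4A and 0 higher and 2 lower with YEXX-2A. Pcsk5, a related convertase, changed by -0.65 with YWCH-4A (adjusted p = 0.0227). Under YWCH-4A, Pdgfc was thus lower while the transcript of its protease was higher.

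Heparan sulfate proteoglycans, which include FGF co-receptors of the cell surface, were counted next. The list was not limited to the cell surface. Of 8 tested, 1 was higher and 6 were lower with YWCH-4A, against 15.7% and 14.9% of all genes, with a median log2 fold change of -0.53, and with YEXX-2A 1 was higher and 2 were lower (median -0.01). The syndecans Sdc1 and Sdc2 changed by -0.86 and -0.53 with YWCH-4A and by -0.56 and 0.27 with YEXX-2A, and the glypican Gpc4 by -0.63 with YWCH-4A and -0.28 with YEXX-2A, all past the test. Sdc4 rose with YWCH-4A by 0.61 (edgeR adjusted p = 7.16e-05). Of 11 tested genes that build or edit heparan sulfate, 2 were higher and 3 lower with either compound (medians -0.23 with YWCH-4A and -0.24 with YEXX-2A), where 30.6% of all genes were called with YWCH-4A and 36.1% with YEXX-2A. Sulf1, a sulfatase that trims heparan sulfate at the cell surface, rose by 1.57 with YWCH-4A (edgeR adjusted p = 2.9e-07) and by 0.40 with YEXX-2A (adjusted p = 0.00892). The sulfotransferase Hs6st1 and the epimerase Glce fell with YWCH-4A, by 0.77 and 0.72, and Hs6st2 rose with YEXX-2A by 1.09. With vehicle replicate 2 left out, the proteoglycan counts were 1 higher and 6 lower with YWCH-4A and 2 higher and 2 lower with YEXX-2A, and the synthesis counts were 3 higher and 3 lower with YWCH-4A and 2 higher and 3 lower with YEXX-2A.

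**Figure D5:**
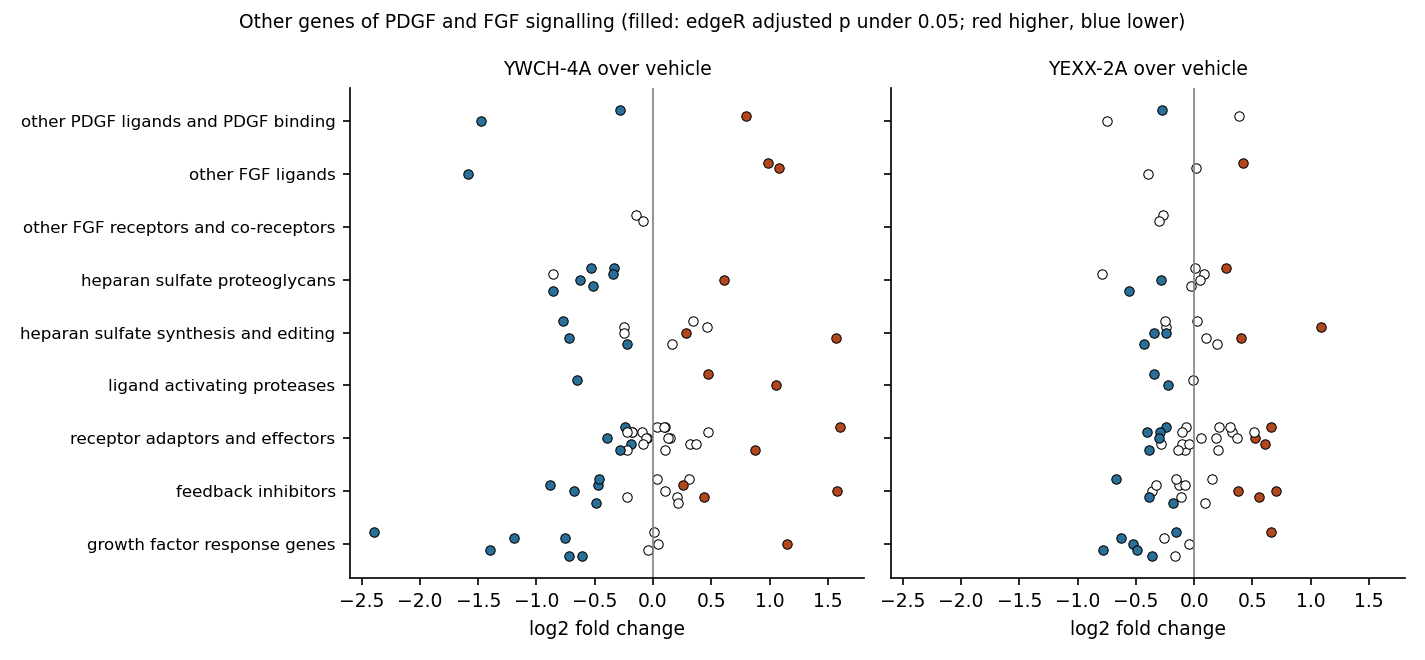
Log2 fold changes of the tested genes of each pathway list (horizontal axes, 1 row of points per list) for YWCH-4A over vehicle and YEXX-2A over vehicle; filled points passed an adjusted p of 0.05, and Ndst2, at 0 in each YEXX-2A library, is left out. Sulf1 (1.57), Pik3r1 (1.61) and Spry2 (1.58) stand farthest right and Fos (-2.40) farthest left among the named genes under YWCH-4A.

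Downstream of the receptors, Myc and Fosl1 fell with both compounds. Of 10 response genes tested, 1 was higher and 6 were lower with YWCH-4A (median -0.67), and 1 was higher and 6 were lower with YEXX-2A (median -0.31), against 14.9% and 18.5% of all genes called lower. Leaving out vehicle replicate 2, these were 2 higher and 6 lower with YWCH-4A, and 0 higher and 6 lower with YEXX-2A. Myc fell by 1.40 with YWCH-4A and by 0.49 with YEXX-2A (edgeR adjusted p = 3.6e-07 and 0.00306), with means of 83.8, 158.0 and 221.7 CPM in YWCH-4A, YEXX-2A and vehicle cells. Fosl1, an AP-1 subunit, fell by 1.20 with YWCH-4A and by 0.63 with YEXX-2A (adjusted p = 1.57e-06 and 0.00117). Fos, another, changed by -2.40 with YWCH-4A (adjusted p = 0.000193) at low levels, 0.27 CPM against 1.52 CPM with vehicle, and was higher by 0.66 with YEXX-2A (adjusted p = 0.0496). Etv1, an ETS factor, rose with YWCH-4A by 1.15 (adjusted p = 0.00272).

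Feedback inhibitors were mixed: of 14 tested, 3 were higher and 5 lower with YWCH-4A (median 0.07) and 3 were higher and 3 lower with YEXX-2A (median -0.12), where 30.6% and 36.1% of all genes were called. When vehicle replicate 2 was left out the counts were 3 higher and 4 lower with YWCH-4A and 3 higher and 2 lower with YEXX-2A. Spry2 rose by 1.58 with YWCH-4A (edgeR adjusted p = 1.85e-07) and by 0.38 with YEXX-2A (adjusted p = 0.0103), while its relative Spry1 fell by 0.89 with YWCH-4A (adjusted p = 0.00506). Rasa1, a Ras GTPase activator, fell by 0.68 with YWCH-4A and rose by 0.71 with YEXX-2A, and between the compounds it was lower under YWCH-4A by a log2 fold change of -1.39 (edgeR adjusted p = 7.99e-05). Spred3 fell by 0.46 with YWCH-4A and by 0.67 with YEXX-2A. Of 23 receptor adaptors and effectors, 2 were higher and 4 lower with YWCH-4A (median -0.05) and 3 were higher and 5 lower with YEXX-2A (median -0.04), shares near those of all genes called (30.6% and 36.1%). With vehicle replicate 2 out these were 2 higher and 4 lower with YWCH-4A and 4 higher and 5 lower with YEXX-2A. In that fit 39.4% of all genes were called with YWCH-4A and 35.1% with YEXX-2A. Adjusted for the library score, 0 adaptors and effectors were higher and 1 lower with YEXX-2A. Fewer genes of the whole table were called in that fit too, by the number given in the closing section. The drop is therefore not read as particular to this list. Pik3r1, the regulatory subunit of PI3-kinase, rose by 1.61 with YWCH-4A (edgeR adjusted p = 2.86e-05) and by 0.66 with YEXX-2A, and Pik3cb rose with YWCH-4A by 0.88. Pik3ca and the FGF receptor adaptor Frs2 rose with YEXX-2A by 0.61 and 0.52.

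Of the 42 calls against vehicle on pathway genes named by the fixed rule, 25 kept call and direction under every alternative, 17 lost the call under at least 1 alternative and 0 reversed. The calls that were lost were those with YWCH-4A of Rasa1, Spred3, Glce, Pcsk5 and Lrp1. With YEXX-2A they were those of Fgf1, Lrp1, Sdc2, Gpc4, Furin, Plat, Pik3r1, Pik3ca, Frs2, Spry2, Spred3 and Fos. Of 20 alternatives, 15 lost the call of Fos with YEXX-2A, among them each of the 9 that left out a library, and 9 lost that of Frs2. Spred3 with YWCH-4A lost its call under 8, and the other pairs besides Lrp1 and Plat under 1 to 5. Without vehicle replicate 2, 2 were lost, Spred3 with YWCH-4A and Fos with YEXX-2A, and 7 were lost after adjustment for the library score.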

How the data were processed

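RNA-seq libraries of 9 NRK-49F cultures were analysed, 3 per group as labelled. Per the labels' protocols, mRNA was enriched with oligo(dT) and libraries were made with an NEBNext Ultra RNA kit; strand use is not stated, so reads of a gene and an overlapping antisense gene cannot be told apart. The submitters' processing notes list RSEM, edgeR, DESeq2 and StringTie 1.3.1. The aligner, build and annotation are not given in the sources used here. The deposited table held a count and an FPKM value for each gene in each library, per the file headers. Non-whole values made up 8.87% of the counts above 0, so the deposited counts were treated as estimated counts made by the authors with a tool that is not stated. A second deposited table of counts and FPKM per group was not used.

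Counts were rounded, filtered with filterByExpr (minimum count 10, leaving 11473 genes) and scaled by TMM, and CPM is on the scaled library sizes. Group differences were tested in R 4.3.3 by the quasi-likelihood test of edgeR 4.0.16 (robust), 1 fit over the 9 libraries with group as the factor, two-sided, Benjamini-Hochberg adjusted over all genes tested and called under 0.05. The SE is the change over the square root of F. The groups shared 1 estimate of the spread although they differed in it, so p-values against vehicle may be too small. Totals of 13675880 to 21923706 counts set the counting error. The script was tested on simulated data.

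Alternatives were DESeq2 1.42.0 and its size factors, upper-quartile factors, no filter, a stricter filter, limma 3.58.1 (voom, and log2(FPKM + 1) and log2(FPKM + 0.1)), a replicate block, the 2 groups compared only, each library left out, and a library score as covariate: the projection onto the first component of within-group deviations, 49.4% of that variance. The library score kept differences between groups, so adjusting for it can also alter a compound's own change. Members and lists were chosen with earlier results of these data known. Besides the members, the text names up to 4 genes of each list, those called against vehicle with the largest change and a mean of at least 1 CPM, and the 3 genes most correlated with Pdgfb and with Fgfr2. Pdgfb and Fgfr2 were the PDGF and FGF members with the smallest p over the 3 groups in the filtered fit. Pdgfb passed that filter through its YWCH-4A libraries alone. List counts and named pathway genes were run under the alternatives after seeing the data. Promoters are RefSeq sequences of build GRCr8.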

Additional observations from a re-analysis of the deposited data

How the results depend on the processing

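Of the genes described, the YWCH-4A calls against vehicle of Pdgfa, Pdgfc, Pdgfra, Fgf7 and Fgfr2 and the YEXX-2A calls of Pdgfrb and Fgf7 kept direction and call under all 20 alternatives. Pdgfb is not counted among them, since it passed the main filter through YWCH-4A libraries alone; it gave no value under the stricter filter, nor in YEXX-2A over vehicle with the 2 groups compared only. Directions turned in other comparisons, none of them called in the reported fit. Fgfr2 in YEXX-2A over vehicle was 0.0012 with upper-quartile factors, 0.064 on log2(FPKM + 1) and 0.070 on log2(FPKM + 0.1), and -0.032 to 0.0032 with a library left out. Adjusted for the library score, Pdgfra (-0.13), Pdgfc (-0.094) and Fgf2 (-0.27) reversed in YEXX-2A over vehicle. With a library left out, Pdgfra ran from -0.059 to 0.10 and Fgf2 from -0.010 to 0.42 in that comparison, Pdgfrb from -0.0040 to 0.18 in YWCH-4A over vehicle and Fgf7 from -0.012 to 0.26 in YWCH-4A over YEXX-2A. Between the compounds, the calls of Pdgfc, Pdgfra, Pdgfrb and Fgfr2 also held. The cause was not tested.

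Genes called over the whole table in YEXX-2A over vehicle numbered 4145, against 1931 with a replicate block, 1742 with the library score and 1408 with the 2 groups compared only, and 1044 (without YEXX-2A replicate 2) to 5308 with a library left out. In YWCH-4A over vehicle they numbered 3516, and 5595 with the library score. In YWCH-4A over YEXX-2A they numbered 3593, 5903 with the 2 groups compared only, and 2225 (without YEXX-2A replicate 2) to 6001 (without vehicle replicate 2) with a library left out. Same-numbered libraries had correlations of -0.37 to 0.13 in their deviations from the group means, so the numbers were not taken as pairs. With the replicate block 3 of the 8 tested genes were called in YEXX-2A over vehicle, where 1931 of all 11473 genes tested were called. The 8 include Pdgfb, which passed the filter through its YWCH-4A libraries alone, and the count is no support. The fit with the library score tested the same 11473 genes. Fgf2 lost its call between the compounds with the block (-0.79, edgeR adjusted p = 0.0925). Counts of at most 4 for Fgfr1 in any library, and of at most 9 for Pdgfb in YEXX-2A and vehicle libraries, limit the precision of these values.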
